A study of Mus musculus with 6 samples.

Results

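The genes described here are 49 homeobox genes outside the Hox clusters, taken as a fixed list of symbols from the NK, LIM, sine oculis (Six2, Six3 and Six6), Dlx, Irx, Msx, Pitx, Otx, Emx, En, Barx, Vax, Gsx and Meis families. All 49 of 49 symbols matched one of 21900 protein-coding genes of RefSeq (GRCm38.p6). Each gene was followed from 2 kb below the lower end of its span to 2 kb above the upper end, on the mouse genome GRCm38. In those windows, 8396 CpG cytosines had at least 10 reads in each of the 6 libraries, of 1457048 such cytosines in the genome. They belonged to 6673 CpG sites, of which 1723 were measured on both strands, and filled 332 of the 108943 tiles of 1 kb with at least 3 cytosines. No measured value was used to choose the genes, but the list was drawn up with earlier results of these data known.

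The libraries were made by enhanced reduced representation bisulfite sequencing, which samples CpG-rich restriction fragments. DNA came from naive B cells of the spleen in the mouse strain C57BL/6. The label of 3 libraries (KO 1 to 3) was Tet2 knockout and that of the other 3 (WT 1 to 3) was wild type, with no further treatment. The labels name neither the knockout allele, nor the age of the mice, nor the number of mice per library, so p-values measure only the spread between libraries, which may be technical. Naive B cells are named in the title and on every sample, while the design text of the series speaks of germinal centre cells; the samples' own labels were used.

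Homeobox genes encode transcription factors that bind DNA through a homeodomain and lay down the identity of regions, organs and nerve cell types in the embryo. In most adult blood cells such genes are kept silent by Polycomb complexes at CpG-rich starts that stay free of DNA methylation. TET2 oxidises 5-methylcytosine to 5-hydroxymethylcytosine, a step towards demethylation. Bisulfite reads both forms as methylated, so the percentages below are their sum. The comparison of KO with WT asks whether the methylation of these developmental genes depends on TET2 in B cells.

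Each library covered between 1551481 and 1626375 cytosines, with a median of 92 to 110 reads per cytosine and 168455105 to 207065050 reads in all. Over the cytosines of the homeobox genes the median coverage was 121, 128 and 136 reads in KO and 160, 148 and 138 reads in WT. Over these cytosines, though not over all cytosines of the libraries, every KO library was thus below every WT library in median depth. The part of depth in the differences below was not tested. Between any 2 libraries Pearson's r was 0.990 to 0.995 across tiles, a description over tiles that are not independent. In Tet2 itself, 6 cytosines between positions 133486189 and 133486297 of chromosome 3 had 28 to 71 reads in every WT library and were absent from the 3 KO files. No cytosine of Tet2 showed the opposite pattern. The cell type was checked at the starts of marker genes. Of 10 B cell markers, 5 had at least 3 cytosines within 1 kb of a start or gene end, and 3 of these were under 10%: Ebf1 at 0.107% in KO and 0.0689% in WT, Pax5 at 0.523% and 0.201%, and Cd79b at 1.86% and 1.08%. Cd22 stood at 39.0% in KO and 30.5% in WT over 4 cytosines, and every KO library was above every WT library. Of 8 T cell markers 2 were measured, Zap70 at 93.4% in KO and 82.3% in WT and Cd4 at 0.519% and 0.548%. At Zap70, over 3 cytosines, every KO library was again above every WT library. These windows are a limited check, since the gene ends of Cd4, a T cell gene whose start is not annotated in the table used, were unmethylated too. Only Csf3r was measured among 7 myeloid markers (5.24% in KO and 4.95% in WT), and none of the natural killer cell markers was. Of 5 erythroid markers 3 were measured, and 1 of them, Klf1, was under 10% (0.497% in KO and 0.558% in WT). Epor stood at 62.9% in KO and 64.6% in WT. Slc4a1 held 62.9%, 59.1% and 59.2% in KO and 70.5%, 69.4% and 71.3% in WT over 7 cytosines, and the groups do not overlap.

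Most starts of the homeobox genes were CpG-rich and nearly free of methylation. Of 5 promoters shown here, 4 are of this kind, and that of Lhx9 is CpG-poor and partly methylated. They run from 250 bases before to 50 bases after the annotated start, 5′ to 3′ on the gene's strand (RefSeq, GRCm38.p6). Capitals mark each CG with a measured cytosine. Nkx6-1 is the gene with the lowest methylation over its region and Emx1 the one with the highest. Isl1 had the smallest p of the gene regions, Irx4 is densely measured, and Lhx9 has the promoter with the most methylation.
Nkx6-1, chr5:101664662-101664961, minus strand: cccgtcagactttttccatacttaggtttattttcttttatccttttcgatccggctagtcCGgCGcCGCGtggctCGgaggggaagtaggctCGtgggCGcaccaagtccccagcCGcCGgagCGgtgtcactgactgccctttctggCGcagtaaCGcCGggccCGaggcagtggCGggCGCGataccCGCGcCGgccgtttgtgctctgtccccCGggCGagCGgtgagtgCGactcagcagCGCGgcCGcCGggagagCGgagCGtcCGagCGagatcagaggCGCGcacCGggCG
Emx1, chr6:85187681-85187980, plus strand: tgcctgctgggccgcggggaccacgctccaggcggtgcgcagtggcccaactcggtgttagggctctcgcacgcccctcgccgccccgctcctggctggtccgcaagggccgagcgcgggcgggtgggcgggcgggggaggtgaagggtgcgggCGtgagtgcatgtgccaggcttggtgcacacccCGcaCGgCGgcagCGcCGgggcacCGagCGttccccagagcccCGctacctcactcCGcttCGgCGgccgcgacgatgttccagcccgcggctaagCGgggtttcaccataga
Isl1, chr13:116309639-116309938, minus strand: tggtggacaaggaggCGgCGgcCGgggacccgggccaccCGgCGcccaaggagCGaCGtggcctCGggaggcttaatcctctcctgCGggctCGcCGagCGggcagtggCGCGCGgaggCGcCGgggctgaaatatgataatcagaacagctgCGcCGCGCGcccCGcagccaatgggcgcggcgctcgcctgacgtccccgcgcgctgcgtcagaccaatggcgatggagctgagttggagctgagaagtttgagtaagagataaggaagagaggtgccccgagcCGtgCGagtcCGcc
Irx4, chr13:73260247-73260546, plus strand: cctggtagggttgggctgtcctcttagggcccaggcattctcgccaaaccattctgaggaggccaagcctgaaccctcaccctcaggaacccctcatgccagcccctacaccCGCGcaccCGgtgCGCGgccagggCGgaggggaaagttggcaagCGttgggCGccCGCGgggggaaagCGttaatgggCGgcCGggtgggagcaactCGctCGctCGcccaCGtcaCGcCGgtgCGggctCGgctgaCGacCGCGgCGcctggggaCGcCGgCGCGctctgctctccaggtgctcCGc
Lhx9, chr1:138842395-138842694, minus strand: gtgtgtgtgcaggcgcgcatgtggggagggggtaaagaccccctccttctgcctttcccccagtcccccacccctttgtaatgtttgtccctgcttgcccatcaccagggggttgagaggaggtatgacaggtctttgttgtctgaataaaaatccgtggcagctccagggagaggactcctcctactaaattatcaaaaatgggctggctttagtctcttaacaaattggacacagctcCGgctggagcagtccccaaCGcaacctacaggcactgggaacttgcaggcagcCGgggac

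The Nkx6-1 promoter holds 40 CG dinucleotides and 66 of its cytosines were measured, counting strands separately. Their mean was 0.694%, 1.17% and 0.742% in KO 1 to 3 and 0.522%, 0.380% and 0.356% in WT 1 to 3. Both groups lie near 0, and the KO libraries do not overlap the WT libraries (no test was made on promoters). Nkx6-1 encodes a factor of pancreatic beta cells and motor neuron progenitors. The Emx1 promoter, with 37 CG, averaged 2.51%, 2.31% and 2.34% in KO and 2.65%, 2.73% and 3.04% in WT over 14 cytosines. Here every KO library lies below every WT library. Emx1, a gene of the developing cortex, has the most methylated region of the set and a nearly unmethylated start. At Isl1, a gene of motor neurons, heart and pancreatic islets, the 29 promoter cytosines averaged 1.97%, 1.41% and 1.08% in KO and 1.03%, 1.36% and 0.829% in WT, and the groups overlap. At Irx4, an Iroquois gene, 51 cytosines were measured on 30 of 31 CG. They averaged 3.77%, 3.25% and 4.74% in KO and 3.60%, 3.31% and 3.65% in WT, again with overlap. The Lhx9 promoter has only 6 CG. Its 4 measured cytosines averaged 9.58%, 11.9% and 3.64% in KO and 13.1%, 12% and 15.8% in WT, and every KO library lies below every WT library. The share of all promoters that separate by genotype was not counted. Lhx9 is a LIM homeobox gene of the gonad.

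Of the 49 genes, 36 have a RefSeq promoter in the table used, and the median number of CG in the 300 bases was 20 (range 4 to 50), against 13 over 17492 protein-coding genes. Median GC content was 63.2% against 56.3%. The core homeodomain motif TAATTA, searched on both strands (it reads the same on each), was present in 3 of 36 promoters, those of Msx2, Emx2 and Otx2 (8.33%), and in 4.68% of all 17492. A match of these letters is no evidence of binding. All 578 measured cytosines in the 36 promoters fell on a CG of the printed strand or its complement. At least 3 cytosines were measured in 29 promoters. Of these, 28 were under 10% on average over the 6 libraries (96.6%, against 94.6% of 8011 promoters), the exception being Lhx9. The homeobox promoters were thus unmethylated about as often as other promoters.

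Over whole gene regions the set stood apart from other genes in level. The regions of 44 of 49 genes averaged under 10% (89.8%), against 32.0% of 16438 protein-coding gene regions with at least 5 cytosines. The median region was at 4.89% in the set and at 20.7% over all genes. Nkx6-1 (1.61%), Dlx4 (1.73%) and En2 (1.99%) had the lowest region means of the 6 libraries, and Emx1 (17.5%), Lhx9 (12.3%) and Lhx4 (11.3%) the highest. Barx2, at 9.60%, lay just under 10% and Meis1, at 10.1%, just over it. The number of cytosines behind a region ranged from 27 at Irx6 to 333 at Lhx2, with a median of 158.

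**Figure D1:**
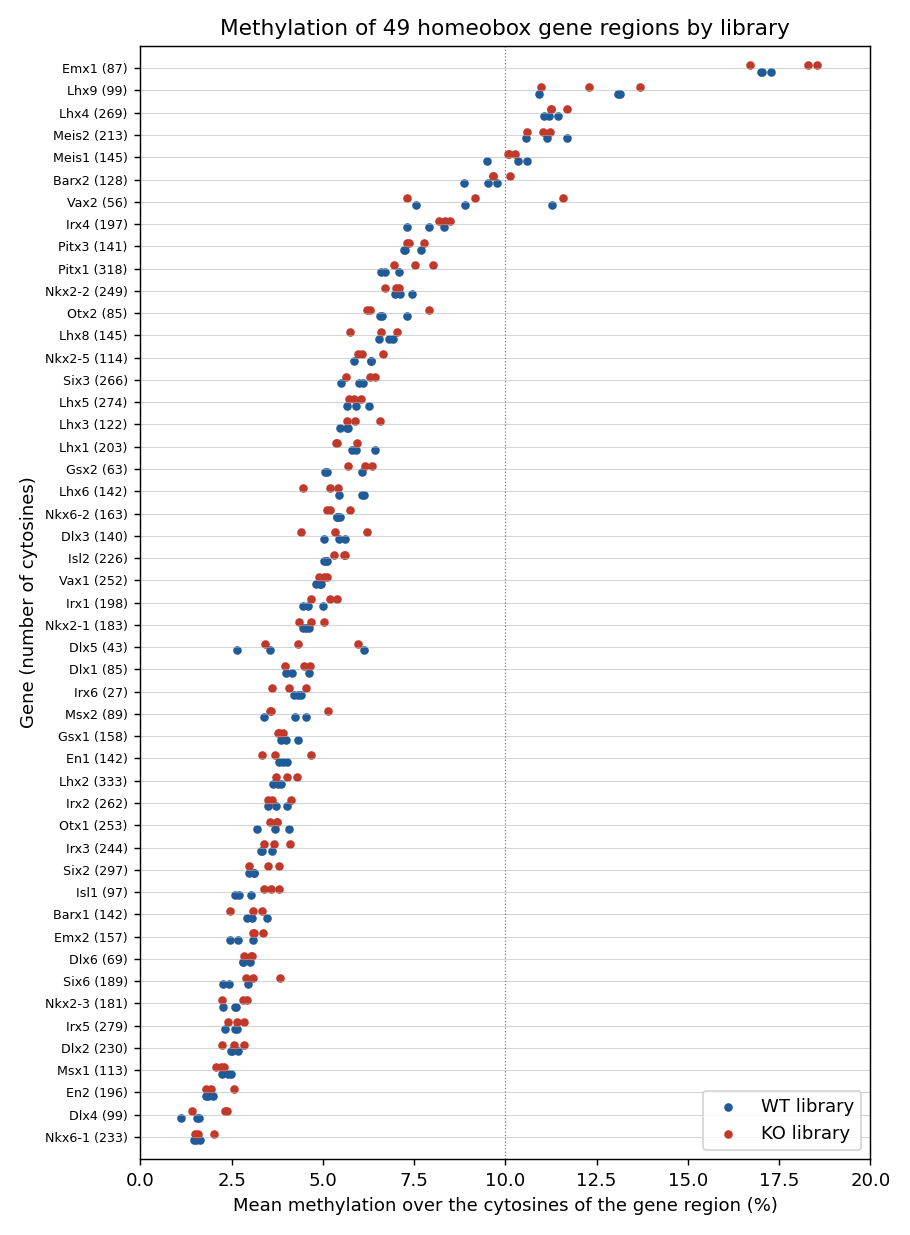
Methylation of the 49 homeobox gene regions in each library. The horizontal axis is the mean over the cytosines of a gene region in percent, each row is a gene with its number of cytosines, and each point is 1 library (red KO, blue WT); the dotted line marks 10%. The red and blue points overlap at 46 of 49 genes, and 44 genes average under 10%.

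Single cytosines gave the same picture. In the homeobox set 7551 cytosines (89.9%) were under 10% on the mean of the 6 libraries, 778 (9.27%) lay between 10% and 90%, and 67 (0.798%) were at 90% or more. The corresponding shares over all cytosines were 60.6%, 13.2% and 26.2%. The 67 methylated cytosines came from 11 genes: Lhx4 had 18, Meis2 had 11, Emx1 had 9, Meis1 had 8, Nkx6-2 and Barx2 had 5 each, Lhx8 had 4, Nkx2-2 had 3, Lhx5 had 2, and Irx4 and Vax2 had 1 each. The other 38 genes had none. Pitx1, a hindlimb gene, had the most cytosines between 10% and 90% (64 of 318), followed by Six3 of the forebrain and eye (45 of 266) and Lhx1 of the kidney and head organiser (44 of 203). In 4 cases the window also takes in part of another coding gene: Inpp5a beside Nkx6-2, Qsox2 beside Lhx3, Catsper3 beside Pitx1 and Elovl3 beside Pitx3.

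Levels varied between and within families, while differences between genotypes stayed within 1 point in each gene. Among the 6 NK genes, which specify thyroid, lung, heart, spleen mesenchyme and neural progenitors, region means ran from 1.61% (Nkx6-1) to 7.06% (Nkx2-2), and differences of KO minus WT from -0.252 to 0.155 percentage points. Nkx2-3, needed for the spleen's own mesenchyme, averaged 2.66% in KO and 2.50% in WT. The 10 LIM genes, which set motor neuron, pituitary and forebrain fates, ran from 3.19% (Isl1) to 12.3% (Lhx9), and 5 were higher and 5 lower in KO. The 6 Dlx genes of the jaw, limb and forebrain ran from 1.73% (Dlx4) to 5.34% (Dlx3), and the 6 Irx genes from 2.57% (Irx5) to 8.09% (Irx4). In both families 4 genes were nominally higher and 2 lower. The sine oculis genes Six2 (kidney), Six3 and Six6 (forebrain and eye) ran from 2.91% (Six6) to 6.00% (Six3). All 3 were higher in KO by 0.254 to 0.718 points, with overlapping libraries at each. Over all gene regions 70.5% were nominally higher in KO. Both Msx genes of skull and teeth (2.29% and 4.07%) and both Engrailed genes of the midbrain (1.99% and 3.90%) were low. Both Pitx genes stood at 7.15% and 7.43%. Both Meis genes, whose products are cofactors of Hox proteins and of which Meis1 acts in blood stem cells, were at 10.1% and 11%.

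In Emx1, Meis1 and Lhx4, which are among the higher genes, the methylated DNA lay away from the start. Emx1 is the clearest case: its start tile (chr6:85187001-85188000) held 2.98%, 3.21% and 3.34% in KO and 3.65%, 3.52% and 3.57% in WT. The tile at the far end of the gene (chr6:85203001-85204000) held 94.3%, 94.7% and 94.5% in KO and 90.2%, 91.9% and 90.6% in WT. In Meis1 the start tile (chr11:19018001-19019000) averaged 1.25% over the 6 libraries, and tiles 39.5 and 96.5 kb further into the gene averaged 93.9% and 96.3%. A tile of Meis1 11.5 kb from the start was intermediate at 53.8%. Lhx4 averaged 1.43% at its start and 94.5% in a tile 24.5 kb downstream. Barx2, without an annotated start here, had a tile at 98.1% in its interior and tiles from 0.942% to 3.98% at its upper end. Lhx9 held 1 tile at 82.4%, 9.94 kb downstream of its start, whose libraries ranged from 73.6% to 89.5% in KO and from 74.1% to 89.4% in WT. The start tile of Lhx9 was itself partly methylated, at 10.9%.

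Around the annotated start, methylation of the homeobox genes stayed low for kilobases on average. In the 500 bases before the start, 28 genes averaged 2.27% in KO and 2.74% in WT, and in the 500 bases after it 31 genes averaged 2.92% and 2.82%. Over all protein-coding genes the same bins held 6.23% and 6.09%, and 7.53% and 7.40%. The median gene went the other way in these bins. With KO and WT averaged, it was at 1.68% and 1.80% in the set, against 0.264% and 0.281% over all genes. Between 4.5 and 5 kb upstream, 8 homeobox genes averaged 6.81% in KO and 6.92% in WT, against 65.2% and 64.7% over 1102 genes. Between 4.5 and 5 kb downstream the values were 6.25% and 6.57% over 10 genes, against 71.3% and 70.4%. The genes that contribute differ from bin to bin, so the profile is a description of covered DNA and not of 1 fixed set of genes. The highest mean of any bin within 5 kb was 13.9%, in KO between 4 and 4.5 kb downstream. In that bin of 11 genes the median gene was at 3.41% and the highest at 95.8%, so the means can hide single methylated genes.

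**Figure D2:**
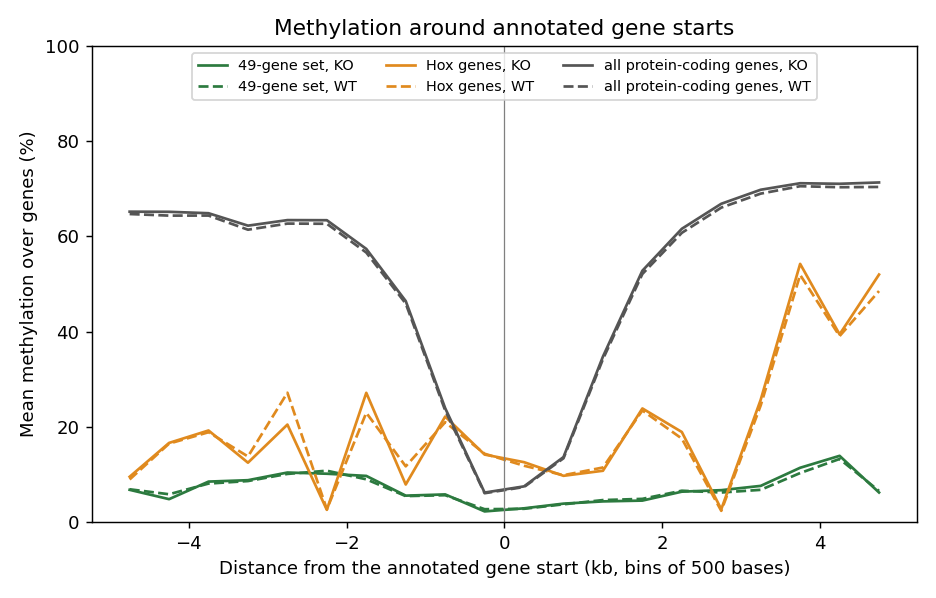
Mean methylation by distance from the annotated gene start, in bins of 500 bases. The vertical axis is the mean over genes in percent, with solid lines for KO and broken lines for WT; green is the 49-gene set, orange the Hox genes and grey all protein-coding genes. The green lines stay under 14% across 5 kb on both sides, while the grey lines reach 64.7% or more in the outermost bins.

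The length of the unmethylated stretch was measured as the run of tiles under 10% around the start, allowing gaps of up to 3 kb without data. Of the 36 genes with an annotated start, 3 had no measured start tile (Lhx3, Otx2 and Six3), and 2 had a start tile at 10% or more, Lhx9 at 10.9% and the heart gene Nkx2-5 at 14.1%. The remaining 31 stretches had a median of 7 kb (quartiles 4 and 8 kb), and 21 reached 5 kb (67.7%). Over 9266 protein-coding genes the median was 2 kb, and 299 stretches (3.23%) reached 5 kb. Hox genes, measured the same way, had a median of 2 kb over 10 stretches, and Fox, Sox, Pax, Tbx and Gata genes a median of 3 kb over 41, of which 36.6% reached 5 kb. Only 6 of 31 stretches were bounded on both sides by a measured tile at 10% or more, and the others end on at least 1 side where coverage ends. The lengths also count gaps without data as part of a stretch, so they depend on how densely an area was sampled.

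Dlx1 and Dlx2, neighbours that direct interneuron and craniofacial development, share 1 stretch of 19 kb on chromosome 2 (chr2:71528001-71547000), the longest of the 9266. It was made of 15 measured tiles, with start tiles at 0.467% (Dlx1) and 1.37% (Dlx2). Emx2 followed with 17 kb, Barx1 of the stomach and teeth with 12 kb, and the nephron progenitor gene Six2 with 10 kb, bounded by tiles at 16.1% and 14.5%. The 22 distinct tiles at the borders of all stretches had KO minus WT differences from -3.99 to 5.87 points with a median of 0.880. Of these, 14 were higher (63.6%) and 8 lower, and none was called. Border tiles are at 10% or more by definition. Among all tiles between 10% and 90%, 62.9% were higher in KO, the median difference was 1.08 points, and 0.407% were called higher. Over tiles of every level 59.8% were higher.

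Within the unmethylated class, homeobox cytosines carried more residual methylation than those of other genes. Over the 7551 cytosines under 10%, the mean was 2.64%, 2.66% and 2.52% in KO 1 to 3 and 2.59%, 2.44% and 2.47% in WT 1 to 3, or 2.61% ± 0.0719 against 2.50% ± 0.0761 (SD, n = 3 each). The lowest KO library lies below the highest WT library. In the same libraries, cytosines under 10% in all protein-coding genes averaged 0.884% in KO and 0.822% in WT, and those in 22 Polycomb genes 0.334% and 0.304%. Other homeobox genes (2.51% and 2.40%) and Hox genes (2.74% and 2.69%) stood close to the set, and Fox, Sox, Pax, Tbx and Gata genes somewhat lower (2.0% and 1.95%). A level between 1% and 10% was found at 69.4% of these homeobox cytosines and at 23.2% of those over all genes.

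By gene, this residual level exceeded 1% at all 49 of the 49 homeobox genes, from 1.13% at Pitx3 to 4.13% at Otx2, with a median of 2.48%. Over 13706 protein-coding genes the median was 0.387% and 28.1% exceeded 1%. The promoters behaved alike: 23 of 29 exceeded 1% (79.3%), against 20.2% of 8011, and their median was 1.72% against 0.20%. The lowest promoter was that of Meis1 at 0.421%, and that of Nkx6-1 was next. Incomplete bisulfite conversion also leaves C in the reads; its part in these levels was not tested. In the same class the Polycomb genes ranged over the 6 libraries from 0.243% in WT 3 to 0.380% in KO 2.

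**Figure D3:**
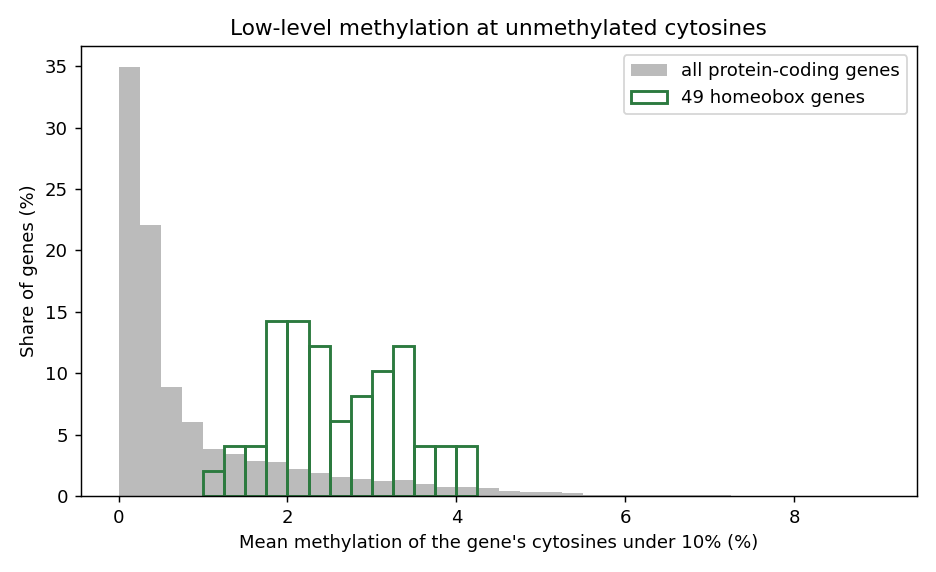
Residual methylation of unmethylated cytosines by gene. The horizontal axis is the mean, in percent, of a gene's cytosines that are under 10%, over 6 libraries, and the vertical axis is the share of genes in percent; grey bars are all protein-coding genes and green outlines the 49 homeobox genes. The green bars start above 1%, where the grey bars already taper off.

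Between KO and WT the methylation of the set as a whole differed by a fraction of a percentage point. The mean over its 8396 cytosines was 5.49%, 5.42% and 5.23% in KO and 5.35%, 5.19% and 5.17% in WT, or 5.38% ± 0.129 against 5.24% ± 0.101 (SD, n = 3 each). KO 3 lies between WT libraries, so the groups overlap with cytosines weighted equally, and the difference was 0.141 points. With reads pooled over the set, every KO library was above every WT library. Over all cytosines of the genome KO was 0.344 points above WT (33.7% against 33.4%). Among cytosines between 10% and 90%, the set stood 0.420 points apart, at 24.5% ± 0.817 in KO and 24.1% ± 0.366 in WT, while the genome's cytosines of that class differed by 1.72 points (60.3% against 58.5%). The 67 cytosines at 90% or more averaged 95.5% ± 0.566 in KO and 94.9% ± 1.12 in WT.

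No homeobox gene region was called, where a call needs at least 10 points of difference besides an adjusted p under 0.05 in the quasi-binomial test, Benjamini-Hochberg adjusted over all 16435 regions tested. The background was equally empty in both directions (percent called 0). All 49 differences were within 1 point, 42 within 0.5 points, and they ran from -0.869 (Lhx6) to 0.798 (Isl1). At an unadjusted p under 0.05 there were 6 regions higher and 1 lower in KO (12.2% and 2.04%), against 8.67% and 1.06% of all regions, so both shares are near the background. The limma test called 0 and had 2 and 0 at that p. The KO and WT libraries did not overlap at 2 higher regions and 1 lower region, against 14.4% and 2.14% of all regions. Nominally 32 of 49 regions were higher in KO (65.3%), against 70.5% of all.

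The smallest p belonged to Isl1 (gene 16392, chr13:116298270-116309688, 97 cytosines). Its region held 3.40%, 3.79% and 3.57% in KO and 3.05%, 2.71% and 2.61% in WT. Every KO library was above every WT library, by 0.798 points between the means, with an adjusted p of 0.246 in the quasi-binomial test. Isl2, its relative in motor neurons and retinal ganglion cells (chr9:55538677-55547667, 226 cytosines), held 5.61%, 5.58% and 5.30% in KO and 5.11%, 5.09% and 5.04% in WT. These groups did not overlap either, at a difference of 0.415 points and an adjusted p of 0.294. Lhx6, which specifies cortical interneurons (chr2:36081950-36105992, 142 cytosines), was the 1 region whose KO libraries all lay below WT: 4.45%, 5.20% and 5.41% against 6.07%, 5.45% and 6.14%. Its difference of -0.869 points had an adjusted p of 0.445, and the fitted difference shrank from -0.842 to -0.315 points with at least 20 reads per cytosine and to -0.214 with reads pooled. Six6 of the retina and hypothalamus (2.55% in WT and 3.27% in KO, adjusted p 0.482) and Pitx1 (6.81% and 7.5%, adjusted p 0.501) had the next smallest p, and their libraries overlapped.

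At the scale of 1 kb, 268 of 332 homeobox tiles were under 10% (80.7%), against 24.1% of all tiles. None of the 332 was called in the quasi-binomial test, against 122 of 108802 tiles higher in KO genome-wide (percent called 0.112) and 0 lower. A tile averaging under 10% can hardly fall by the 10 points that a call needs. Among all tiles of the genome under 10%, 2 of 26255 were called higher in KO (0.00762%). The smallest adjusted p in the set was 0.276. Of the 332 tiles, 16 were higher in KO at an unadjusted p under 0.05 (4.82%, background 5.74%) and 6 lower (1.81%, background 1.46%). With limma, 3 were higher and 4 lower at that p. Libraries did not overlap at 24 higher tiles (7.23%, background 8.35%) and 13 lower tiles (3.92%, background 3.36%). Nominally 195 tiles were higher in KO (58.7%, background 59.8%) and 137 lower. The median difference of the set was 0.169 points against 0.174 over all tiles, and 232 tiles were within 1 point. These shares and medians are close to those of the genome.

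Most called tiles of the genome were intermediate in level. The set had 56 tiles between 10% and 90% (16.9%, against 27.1% of all tiles). Whether this smaller share bears on the lack of calls was not tested. Of the 56 tiles, 30 were higher and 26 lower in KO, with a median difference of 0.290 points. None of them was higher at an unadjusted p under 0.05 and 1 was lower, that of Lhx9. In the genome, 29505 tiles were in that class, with a median difference of 1.08 points. Of these, 9.86% were higher at that p and 120 were called (0.407%). The set's intermediate tiles were mostly low, with 36 between 10% and 30%, 11 between 30% and 70% and 9 between 70% and 90%. In the 30% to 70% class the median difference was -0.803 points over 11 tiles of the set and 1.48 points over 9076 tiles of the genome. These medians are descriptions of few tiles, and no test was made between them.

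**Figure D4:**
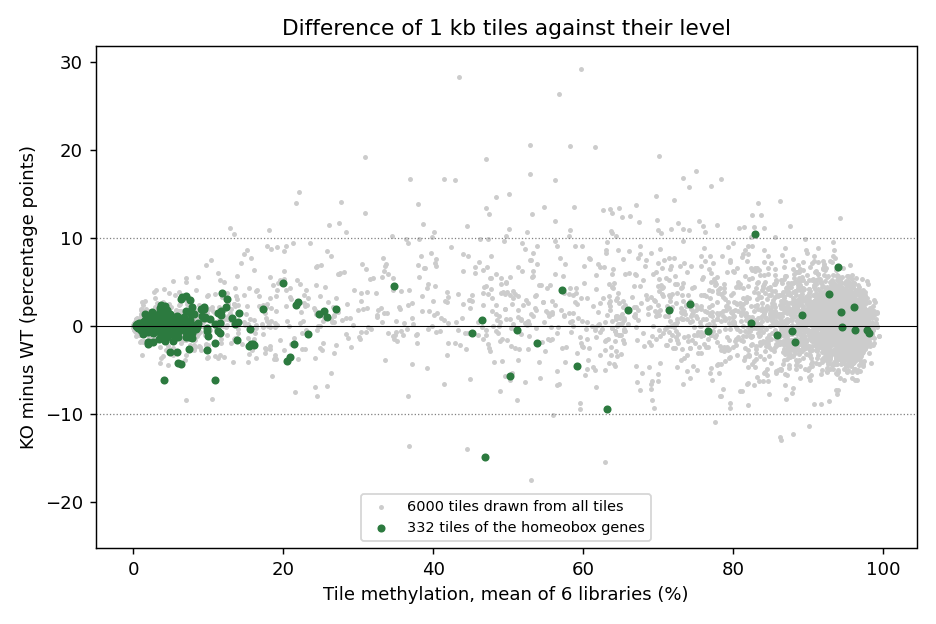
Difference of 1 kb tiles between genotypes against their level. The horizontal axis is the mean of 6 libraries in percent and the vertical axis is KO minus WT of pooled reads in percentage points; green points are the 332 homeobox tiles, grey points 6000 tiles drawn from the genome, and dotted lines mark 10 points. Most green points sit under 10% and near 0, and 2 lie beyond the dotted lines, Lhx6 at -14.9 and Meis2 at 10.5.

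Differences of at least 10 points occurred in 2 tiles, both thinly covered. The Lhx6 tile (chr2:36081001-36082000), at the 3′ end of the gene, 23.9 kb from its start, has 3 cytosines and 49 to 118 reads per library. It held 44.3%, 35.8% and 39.4% in KO and 49.4%, 55.1% and 57.6% in WT. All KO libraries lay below all WT libraries and the pooled difference was -14.9 points, with an unadjusted p of 0.0863 and an adjusted p of 0.760 in the quasi-binomial test. The Meis2 tile (chr2:116015001-116016000, 5 cytosines), 49.1 kb inside a gene of limb and brain, held 89.1%, 95.4% and 73.8% in KO and 89.6%, 72.4% and 77.2% in WT. Its libraries overlapped, and the pooled difference of 10.5 points had an adjusted p of 0.725.

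Among tiles whose libraries did not overlap, the tiles furthest below WT after Lhx6 were at low levels. A Meis1 tile (chr11:18957001-18958000, 4 cytosines) held 2.70%, 1.23% and 0% in KO and 4.17%, 12.5% and 4.03% in WT, or -6.15 points on pooled reads (adjusted p 0.660). The 0 of KO 3 rests on 130 reads, which allow up to 2.31%. WT 2 alone stands far above the other libraries there, and without it the difference was -2.61 points. The Lhx9 tile with its promoter (chr1:138842001-138843000) held 9.91%, 11.1% and 3.88% in KO and 13.2%, 12% and 15.6% in WT over 4 cytosines (-6.08 points, adjusted p 0.652), and without KO 3 the difference was -3.19 points. The tile with the smallest p of the set belonged to Gsx1, a gene of the ventral forebrain (chr5:147190001-147191000, 15 cytosines, 2027 to 2972 reads per library). It held 3.55%, 4.34% and 5.31% in KO and 7.93%, 6.56% and 7.75% in WT, with a pooled difference of -2.90 points, an unadjusted p of 0.00157 and an adjusted p of 0.276. An Nkx2-2 tile (chr2:147187001-147188000), near the start of this gene of the ventral spinal cord and islets, was lower by 2.09 points at 1.10% in KO against 3.18% in WT. KO 3 had no methylated read of 268 there, which allows up to 1.12%.

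The 5 higher tiles named here had pooled differences of 2.09 to 3.65 points, smaller in size than those of the Lhx6, Meis1 and Lhx9 tiles. At the far end of Emx1, given above, the pooled difference was 3.65 points (unadjusted p 0.0448, adjusted p 0.683). A Dlx4 tile (chr11:95142001-95143000, 15 cytosines) held 9.28%, 6.29% and 11% in KO and 6.29%, 3.57% and 6.07% in WT (3.46 points, adjusted p 0.526); its lowest KO and highest WT libraries nearly touch. A Six3 tile (chr17:85613001-85614000, 7 cytosines) at the lower end of the gene span held 8.33%, 7.26% and 8.01% in KO and 5.46%, 6.04% and 3.24% in WT (3.05 points, adjusted p 0.675). In Lhx4, a tile 3.53 kb downstream of the start (chr1:155738001-155739000, 16 cytosines) held 9.75%, 8.80% and 8.43% in KO and 6.14%, 6.83% and 5.33% in WT. The groups do not overlap, at 2.92 points, and the adjusted p was 0.547. A Gsx2 tile of 3 cytosines (chr5:75077001-75078000) averaged 4.65% in KO and 2.59% in WT (adjusted p 0.851). Thus 5 of the 10 non-overlapping tiles with the largest differences were higher in KO and 5 lower, and none passed the test.

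**Figure D5:**
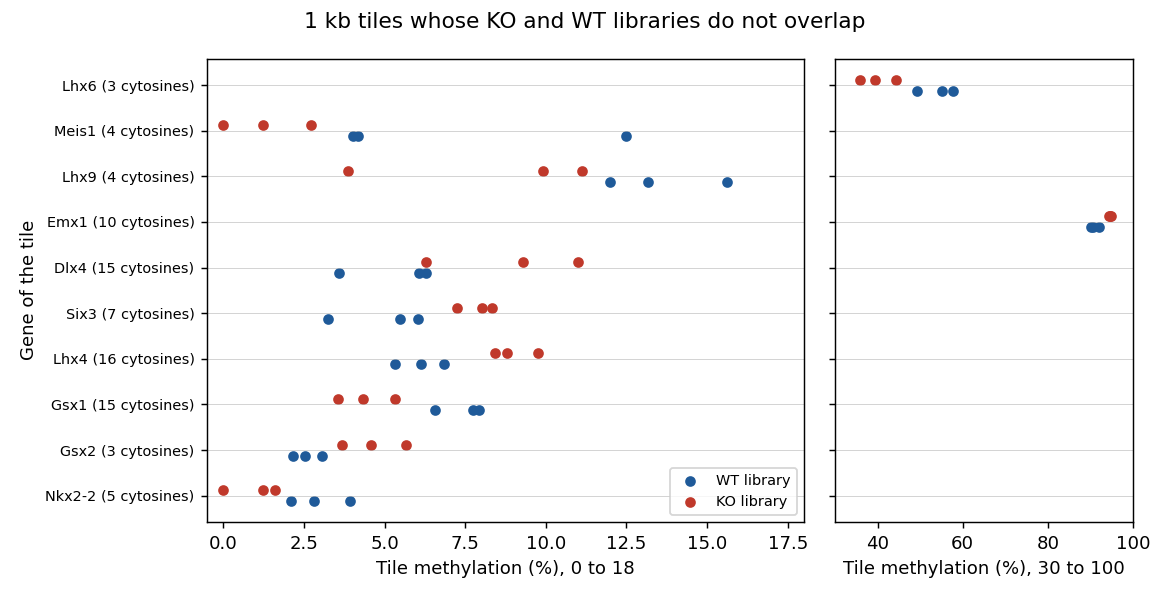
The 10 homeobox tiles with the largest KO minus WT differences among those whose libraries do not overlap. Each row is a tile named by its gene with its number of cytosines, each point is 1 library (red KO, blue WT), and the horizontal axes give methylation in percent over 2 ranges. In 8 of 10 tiles all 6 libraries lie under 18%, and the tiles of Lhx6 and Emx1 lie above 30%.

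Single cytosines gave no call. Of the 8396 cytosines, 7907 had both methylated and unmethylated reads and were tested, and 0 were called in the quasi-binomial test, against 8 of 1095119 genome-wide, all higher in KO (percent called 0.000731). At an unadjusted p under 0.05, 388 were higher (4.91%, background 5.31%) and 358 lower (4.53%, background 3.17%), and limma gave 298 and 170 with 0 called. Libraries did not overlap at 287 higher cytosines (3.63%, background 3.95%) and 341 lower ones (4.31%, background 2.99%), and 4010 were nominally higher (50.7%, background 52.1%). The smallest adjusted p was 0.512. Few cytosines split cleanly by genotype in coverage: 9651 cytosines of the set were covered in at least 1 library and 87.0% of these in all 6, while 1 was covered in the 3 KO libraries and no WT library and 1 in the 3 WT libraries and no KO library.

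The other genes of the pathway gave no called region either, in lists drawn up with earlier results known. Of 22 Polycomb genes, which encode the repressors of developmental genes, 3 were higher at an unadjusted p under 0.05 (13.6%, background 8.67%): Cbx2 (14.1% in KO and 12.9% in WT), Cbx7 (31.4% and 30.5%) and Pcgf1 (1.33% and 0.985%). None was lower, and the median difference was 0.0474 points. Of 24 partners and cofactors of homeodomain proteins only Pknox2, a relative of Meis genes, was higher at that p (28.0% in KO and 26.7% in WT), a share of 4.17%. None of 12 homeobox genes used in blood cells, such as Hhex (0.235% and 0.155%) and Satb1 (7.09% and 7.06%), passed it. Of 16 patterning signals, Fgf8 (14.6% and 13.9%) and Fgf10 (4.97% and 4.20%) were higher and Gli1 of the Hedgehog pathway (36.8% and 38.3%) lower, shares of 12.5% and 6.25% against a background of 8.67% and 1.06%. The smallest adjusted p of any of these genes was 0.272, in the quasi-binomial test.

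Related transcription factor genes were measured with the same windows. Of 57 measured other homeobox genes, 71.9% had regions under 10% (median 5.13%), of 39 Hox genes 69.2% (median 6.33%) and of 88 Fox, Sox, Pax, Tbx and Gata genes 53.4% (median 9.02%). The 49 genes, at 89.8% and 4.89%, had the largest share and the lowest median of these lists, which were not tested against each other. No region of these lists was called. At an unadjusted p under 0.05, where all regions gave 8.67% higher and 1.06% lower, 3 of the other homeobox genes were higher (5.26%) and 0 lower, and 5 of the Hox genes higher (12.8%) and 0 lower. Of the Fox, Sox, Pax, Tbx and Gata genes 12 were higher (13.6%) and 2 lower (2.27%).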

How the data were processed

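Methylation was measured in 6 libraries; the submitters' processing notes name Bismark, a bisulfite read mapper, and the build GRCm38. For trimming, duplicate handling and versions the sources used here give nothing. The deposited tables give, per the file headers, a raw read count (coverage) for each CpG cytosine and strand and the percent of reads with C and with T, without normalization; no cytosine had coverage below 10. C and T counts were recovered as percent times coverage (100% whole within rounding), and 0.0178% to 0.0190% of reads with another base were left out. PCR reads without molecular identifiers are not independent molecules, so limits from read counts cover counting error only.

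Gene spans and promoters came from RefSeq tables of GRCm38.p6; no genome sequence was used, and exons and introns were not analysed here. The value of 1 marker gene is not reported here. A tile belonged to a gene if it overlapped the gene's window by at least 500 bases. Tiles pooled reads over cytosines; gene regions weighted cytosines equally. A quasi-binomial model gave 1 level per genotype, with the overdispersion moderated across all features by limma 3.58.1 in R 4.3.3 and never below 1; the F test and the Benjamini-Hochberg adjustment ran over the whole genome, and features with no C or no T read in any library were not tested. The method was tested on simulated data, with differences planted only in tiles and regions of intermediate level, above the level of most of this set. Named were the 10 non-overlapping tiles with the largest differences, the 5 regions with the smallest p, the 3 highest and 3 lowest regions, the 3 with most intermediate cytosines, and any feature called; other names were chosen after their values were seen. Members and lists were chosen with earlier results of these data known. The alternatives tried were at least 20 reads, an upper coverage limit, each library left out, the replicate block, unmoderated overdispersion, limma on log2((C + 2)/(T + 2)), the other weighting, shifted tiles, at least 5 cytosines per tile, and no flanks.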

Additional observations from a re-analysis of the deposited data

How the results depend on the processing

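No homeobox tile, region or cytosine was called under the 14, 13 and 11 alternatives run for them, and the lowest adjusted p of any was 0.158, 0.130 and 0.350. Most of these features average under 10%, so a lower call, which needs a fall of at least 10 points, was hardly possible for them. All 188 alternative values of the 10 named tiles and 5 named regions kept their direction without a call. Much of this was fixed in advance. The 10 tiles were chosen because their libraries do not overlap, so leaving out 1 library could not reverse them. The replicate block, unmoderated and limma fits reuse the same difference, so direction could not change there either. The mean difference over the 8396 cytosines was 0.347 points with reads pooled instead of 0.141, where the genome differed by 4.91 points. Leaving out single libraries gave 0.0873 (without KO 1) to 0.213 points (without KO 3). The Lhx6 tile ranged from -17.3 to -12.0 points and the Meis1 tile from -8.45 to -2.61. The Lhx9 tile was at -3.19 points without KO 3, and with equal weights the Emx1 tile was at 2.20 and the Gsx2 tile at 0.977. The fitted difference of the Lhx6 region, -0.842 points, was -0.315 at a coverage minimum of 20, -0.490 without flanks and -0.214 with pooled reads, which also gave Isl1 0.438 and Pitx1 0.357. Pitx1 was at 0.405 without KO 1, and Six6 at 0.426 without KO 2 and 1.76 without flanks. The genome-wide count of 122 higher tiles, quoted as background, was 52 without KO 2, 50 without WT 1 and 79 without WT 3, and 0 with no moderation and with limma; the cause was not tested.

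No clear pairing of libraries by the replicate numbers in the labels was seen. Whether same-numbered libraries were prepared together is not given and was not tested. Deviations of same-numbered libraries correlated at 0.0481, -0.0293 and -0.00736 over 29505 intermediate tiles. KO 1 correlated best with WT 1, while KO 2 and KO 3 each correlated best with a WT library of another number. With the replicate number as a block, 0 homeobox tiles, 0 regions and 0 cytosines were called, and the 122 tiles of the genome became 0. The lowest adjusted p in the set was then 0.817 for tiles and 0.398 for regions. Depth was low in some tiles of few cytosines, such as that of Lhx6 with 49 to 118 reads per library; its part in the lack of calls was not tested.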
